A study of Mus musculus with 20 samples.

Results

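Gene expression was compared between the 6 breast tumors with the highest expression dosage of chromosome 4 (Chr4) and the 6 with the lowest, out of 20 tumors in all. Every tumor was a breast tumor of a separate female [BALB/c-neuT x FVB/J] F1 mouse. All mice, in both groups, carried the rat neuT oncogene, an activated form of the receptor tyrosine kinase gene Erbb2 that had been inherited from a BALB/c father, and no mouse received a treatment that the labels name. There was no group of normal tissue, and RNA came from pieces of tumor, so a bulk value cannot separate fewer cells of a type from less RNA per cell. The sample titles carry the words Lo or Hi, whose meaning the labels do not give. They do not name the dosage groups, and the high-dosage group held 3 Lo and 3 Hi titles while the low-dosage group held 4 Lo and 2 Hi. Tumors are named here by the first number of their title.

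The dosage of a tumor was read from RNA alone. Counts were divided by the total count of the tumor to give CPM (counts per 1000000 counts), and log2(CPM + 1) was taken for the genes with a mean of at least 5 CPM. The median of each gene over the 20 tumors was subtracted, and the dosage was the median over the Chr4 genes that passed (739 of the 2878 in the file) minus the median over the 11611 genes of Chr1 to Chr19. A dosage of 0 is therefore the usual tumor of this series and not a normal copy number, and a change that all 20 tumors share cannot be seen. The authors reported loss of a Chr4 copy in every F1 tumor that they karyotyped, and expressed alleles skewed toward FVB along Chr4. High and low dosage are relative to the other tumors of the series, and DNA was not analysed here.

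Mouse Chr4 carries the cell cycle inhibitor genes Cdkn2a and Cdkn2b and is related by synteny to human 1p and 9p, regions that are often lost in tumors. Loss or gain of a chromosome usually moves the RNA of most of its genes a little in the same direction, since many genes are expressed in proportion to their copies. A tumor piece also holds normal cells, which dilute such a shift. A shift of a whole chromosome is thus sought in the median of many genes and not in single genes.

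Chr4 dosage fell by degrees from the highest to the lowest tumor. In the high-dosage group, tumor 19 stood at 0.36, tumor 5 at 0.17, tumor 3 at 0.16, tumors 13 and 6 at 0.12 and tumor 14 at 0.11. In the low-dosage group, tumor 20 stood at −0.07, tumors 17 and 4 at −0.08, tumor 18 at −0.12, tumor 2 at −0.18 and tumor 1 at −0.19. Tumor 19 was alone at the top, while the other 5 high-dosage tumors lay within a narrow range. Just outside the groups were tumor 9, at 0.03, and tumor 16, at −0.05. The gap was 0.08 between the sixth and the seventh tumor and 0.03 between the fourteenth and the fifteenth, so that the boundary of the low-dosage group fell between neighbors of similar dosage. The group means were 0.17 ± 0.097 and −0.12 ± 0.055 (SD, n = 6 tumors each). Their difference of 0.29 on the log2 scale corresponds to Chr4 expression at 123% of the low-dosage level, and it was 0.26 without tumor 19. Tumor 19 had 1.47 times the relative Chr4 expression of tumor 1. These values chose the groups, so no test was applied to any Chr4 measure. With CPM scaled by TMM factors, or with a trend on GC content and length removed, 6 of 6 high-dosage and 5 of 6 low-dosage tumors remained in their groups.

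**Figure D1:**
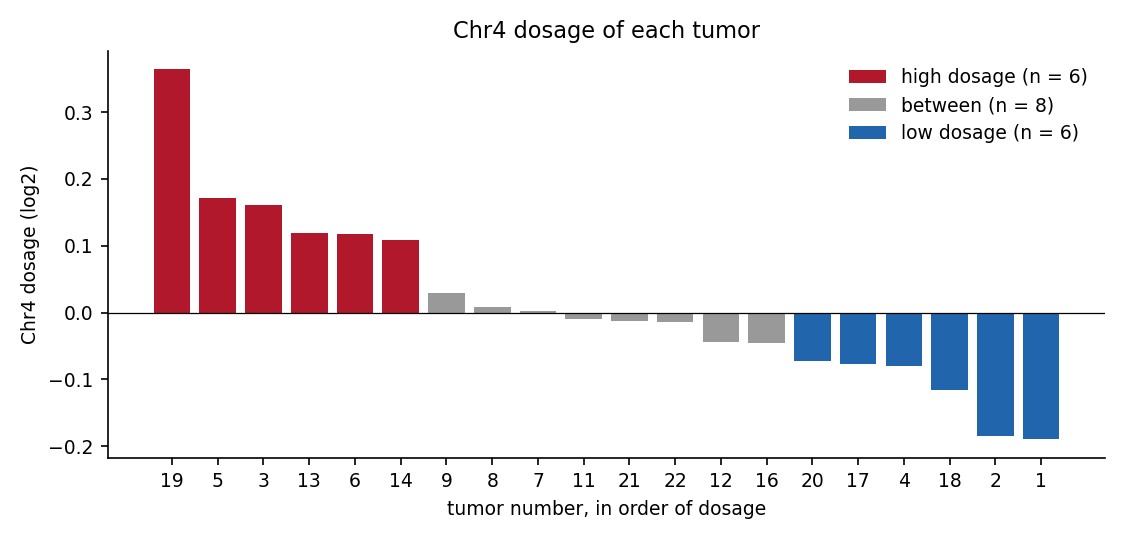
Chr4 dosage (log2, vertical axis) of each of the 20 tumors in order of dosage (horizontal axis), 1 bar per tumor. Red bars are the 6 high-dosage tumors, from 0.36 to 0.11, grey bars the 8 tumors between, and blue bars the 6 low-dosage tumors, from −0.07 to −0.19.

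Total counts ran from 47461277 to 65192774 in the high-dosage group and from 38765682 to 57411377 in the low-dosage group. Neither the total count, the share of counts at the ribosomal RNA locus (13.5% ± 4.5 against 15.9% ± 5.3, SD, n = 6 each) nor the CPM of Xist, the RNA that silences an X chromosome, passed an exact two-sided permutation test (adjusted p = 0.69 for each of the 3). Counts at mouse Erbb2 were at 140 to 241 CPM and 158 to 225 CPM, with a log2 fold change of −0.02 ± 0.10 (SE). Reads were aligned to the mouse genome, and whether reads of the rat neuT RNA were counted at Erbb2 was not tested. As the label of breast tumor calls for, the epithelial gene Epcam was abundant, at 948 CPM or more in every high-dosage tumor and 945 CPM or more in every low-dosage tumor.

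Along Chr4 the difference was spread over the whole chromosome. Of 16 bins of 10 Mb, 16 had a higher mean in the high-dosage group, by 0.23 to 0.38 on the log2 scale, and in 12 the tumors of the groups did not overlap. The bins that overlapped were those from 60 to 70, 70 to 80, 90 to 100 and 150 to 160 Mb, of which the second held only 7 genes. The difference was largest in the bin nearest the centromere, where the high-dosage tumors had a mean of 0.20 ± 0.086 and the low-dosage tumors a mean of −0.18 ± 0.079. It was 0.32 in the bin with the most genes, from 130 to 140 Mb, which held 122.

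**Figure D2:**
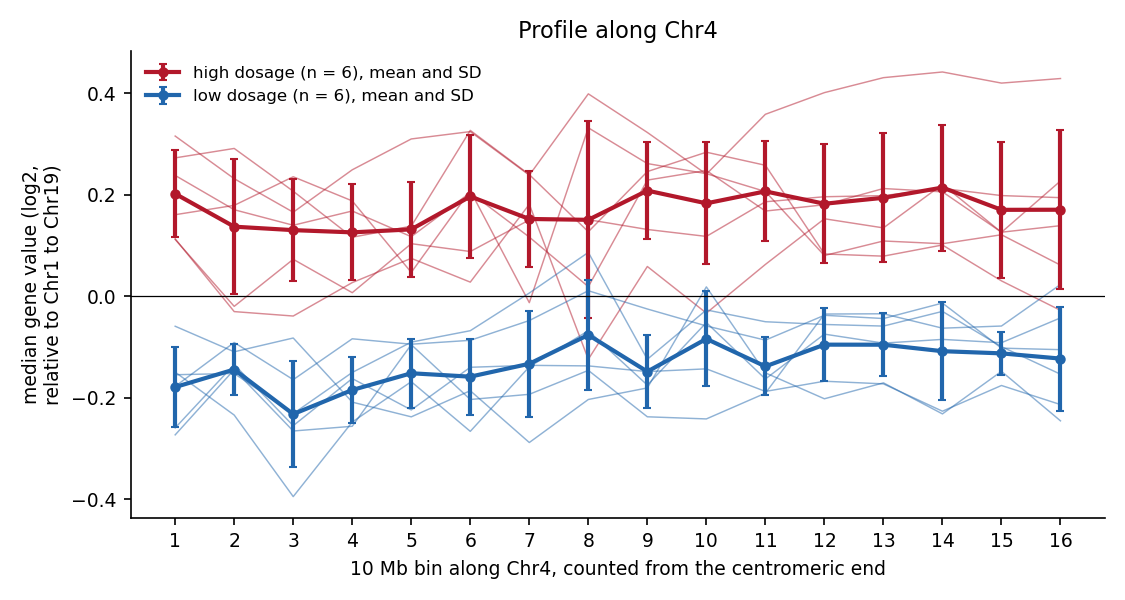
Median gene value (log2, relative to Chr1 to Chr19) in the 16 bins of 10 Mb along Chr4, counted from the centromeric end. Thin lines are the 12 single tumors, and thick lines with bars are the mean and SD of the 6 high-dosage (red) and 6 low-dosage (blue) tumors, whose means are apart in 16 of 16 bins.

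Single tumors did not all have a flat profile. The part of Chr4 below 100 Mb and the part beyond it stood at 0.31 and 0.41 in tumor 19, which was above 0 in all 16 bins. They stood at 0.10 and 0.20 in tumor 3 and at 0.05 and 0.16 in tumor 13, a slope in the same direction. Tumor 14 had the opposite slope, with 0.20 below 100 Mb and 0.08 beyond it. Tumor 4 stood at −0.17 and −0.04, and tumor 18 at −0.18 and −0.09, so that the low dosage of both was deeper near the centromere. In tumors 1 and 2 the parts differed by only 0.02. Tumor 7, which lay in the middle of the order with a dosage of 0.00, stood at 0.11 below 100 Mb and at −0.05 beyond it. The gene-rich chromosomes Chr7, Chr8, Chr11, Chr17 and Chr19 were also set, as whole chromosomes, against the remaining autosomes without Chr4. This contrast moved with some of these slopes, by 0.08 in tumor 4, −0.07 in tumor 14 and −0.05 in tumor 7. A dosage change of any of these chromosomes would also enter it. After removal of the trend on GC content and length, the slopes were 0.05 in tumor 4, 0.03 in tumor 18, −0.08 in tumor 14 and −0.14 in tumor 7. High-dosage tumors 19, 3, 13 and 5 had larger slopes than tumors 4 and 18, at 0.09, 0.08, 0.07 and 0.07.

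A short stretch near the distal end of Chr4 stood far above the rest in tumor 18, a low-dosage tumor. All 14 genes of at least 5 CPM between 154142372 and 155591001 (mm10), a length of 1.45 Mb, were above the highest of the other 19 tumors by more than 1 on the log2 scale. Their CPM in tumor 18 was 4.55 to 8.44 times the median of the other tumors. Megf6, an EGF-repeat protein gene, was at 1805 CPM in tumor 18 and at 151 to 330 CPM elsewhere. Gnb1, which encodes a G protein β subunit, was at 976.8 CPM against 133 to 268 CPM. Ski, a proto-oncogene that restrains TGF-β signaling, was at 647 CPM against 89.9 to 198 CPM. Of the 2 genes in the stretch with a mean between 1 and 5 CPM, Morn1 was at 7.26 times the median of the other tumors, while Tnfrsf14, a receptor of the TNF family, was at 1.02 times that median. Genes on either side did not share the rise, since the 24 genes from 150 Mb to its start had a median of −0.01 in tumor 18 and the 34 genes beyond its end a median of −0.06.

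Tumor 18 had 2 further such genes on Chr4, Rasef at 153 CPM against 24.0 to 47.9 CPM and its neighbor Kdm4c, a histone demethylase gene, at 83.7 CPM against 15.2 to 24.4 CPM. They lie at chr4:73714579-73790709 and chr4:74242497-74405860. These 16 genes were most of the 18 that stood apart in this way in tumor 18 over the whole genome. Elsewhere on Chr4, Coro2a in tumor 22 and Sgip1 in tumor 20 were the only genes that stood above all other tumors by as much. Without the 16 genes the Chr4 dosage of tumor 18 was −0.12, so the stretch did not set its group. The search for such genes was made after the values were seen, and no DNA value was set beside it.

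Most Chr4 genes took part in the difference. Of the 739 genes, 668 (90.4%) had a higher mean log2(CPM + 1) in the high-dosage group, and the median difference was 0.30. Among 10872 genes of the other autosomes 44.6% were higher, with a median difference of −0.02. The groups did not overlap, with the high-dosage tumors higher, for 172 Chr4 genes (23.3%) against 1.21% of the genes of other autosomes. The opposite, with the high-dosage tumors lower, held for 0.271% of Chr4 genes and 1.23% of the others. Nothing is read from the Chr4 shares, because the same genes chose the groups. From 5 CPM up, the median difference hardly moved with expression level. It was 0.29 for the 342 genes with a mean of 5 to 20 CPM and 0.30 for the 58 genes above 100 CPM. The 210 Chr4 genes with a mean of 1 to 5 CPM, which the dosage did not use, had a dosage of 0.10 ± 0.064 in the high-dosage and −0.06 ± 0.049 in the low-dosage tumors, without overlap. Their difference was 0.16, smaller than the 0.29 of the genes that the dosage used. The 1 added to CPM before the log shrinks differences at such low levels, so these values cannot be compared directly.

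**Figure D3:**
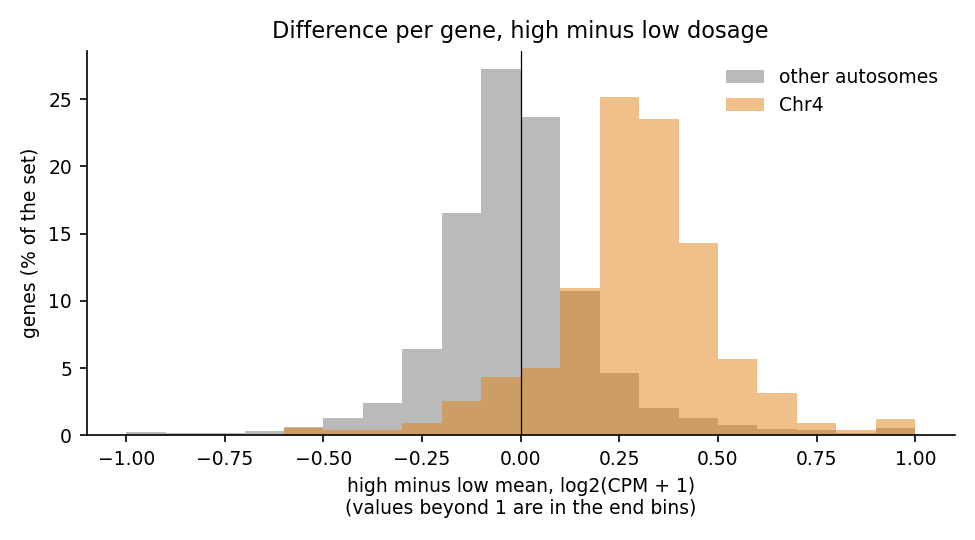
Difference in mean log2(CPM + 1), high minus low dosage, in steps of 0.1 (horizontal axis) and the percentage of genes in each step (vertical axis). The 739 Chr4 genes (orange) center on 0.30 and the 10872 genes of the other autosomes (grey) on −0.02.

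The Chr4 genes with the largest differences exceeded what the chromosome as a whole showed. Extl1, a glycosyltransferase gene of the exostosin family, had a lowest, median and highest level of 34.1, 58.2 and 84.7 CPM in the high-dosage tumors and 12.9, 19.9 and 24.4 CPM in the low-dosage tumors. Ttpa, the vitamin E transfer protein, was at 18.9, 27.4 and 30.9 CPM against 7.07, 10.5 and 13.9 CPM. Ddx58, the RNA sensor RIG-I, was at 48.8, 57.8 and 89.3 CPM against 19.2, 26.1 and 42.6 CPM. None of these overlapped. The proteoglycan gene Sdc3 had 210% of the low-dosage mean, also without overlap, and the tropomyosin gene Tpm2 200%, with overlap.

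Some Chr4 genes ran against the chromosome. The smallest difference was that of Espn, an actin-bundling protein, at 7.62, 14.8 and 19.5 CPM in the high-dosage tumors and 23.2, 31.5 and 53.5 CPM in the low-dosage tumors. Ak4, a mitochondrial adenylate kinase, was at 62.8% of the low-dosage mean and the tetraspanin gene Tspan1 at 53.4%. Car6, a secreted carbonic anhydrase, was at 69.8%. Plch2 was at 48.3%, a mean set by tumor 18, where it lies within the raised stretch. Its medians were 24.9 and 26.7 CPM.

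Among the known growth regulators of Chr4, the Cdkn2a locus did not follow the chromosome. Cdkn2a, which encodes p16Ink4a and p19Arf, was at 6.04, 10.04 and 12.6 CPM in the high-dosage tumors and at 4.55, 9.06 and 19.6 CPM in the low-dosage tumors. Cdkn2b, which encodes p15Ink4b, had medians of 13.2 and 12.2 CPM. Their neighbor Mtap, an enzyme of methionine salvage, was at 135% of the low-dosage mean, with overlap. Counts do not separate the transcripts of p16Ink4a from those of p19Arf. Of 14 tumor suppressor genes of Chr4 with at least 5 CPM, 13 had a higher mean in the high-dosage group and 4 did not overlap, with a median difference of 0.32, near the 90.4%, 23.3% and 0.30 of all Chr4 genes. Among 18 growth and cell cycle genes 15 were higher and 5 did not overlap, which is also near those shares. Nfib, a nuclear factor that acts in the mammary lineage, was at 319 to 418 CPM against 201 to 244 CPM, and the Src-family kinase gene Lyn at 33.3 to 49.7 CPM against 16.6 to 26.6 CPM. Tgfbr1, the type I TGF-β receptor, was at 148% and the cytokine kinase gene Jak1 at 153% of the low-dosage mean, neither with overlap.

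The remaining Chr4 lists had the same direction as the chromosome. All 14 measured chromatin and DNA repair genes were higher, with a median difference of 0.30, as were all 13 stromal and immune genes, with a median of 0.49. Of 22 housekeeping and signaling genes 19 were higher, with a median of 0.27. Exceptions were Gnb1, the perlecan gene Hspg2 and the enolase gene Eno1. Gnb1 had the raised value of tumor 18 within the low-dosage mean.

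For the other chromosomes no difference between the groups passed the test. For each of 19 chromosomes (Chr1 to Chr3, Chr5 to Chr19 and ChrX) the dosage was compared between the groups by an exact two-sided permutation test, in which 6 against 6 tumors can reach p = 0.0022. None passed after Benjamini-Hochberg adjustment, and 1 had an unadjusted p under 0.05, Chr8, at −0.04 (p = 0.045, adjusted p = 0.63, exact permutation test). The largest difference was that of Chr1, at 0.07 (adjusted p = 0.79, exact permutation test). Its dosage was low in tumor 19 (−0.10) of the high-dosage group and in tumors 20 (−0.21) and 4 (−0.27) of the low-dosage group. Chr2 dosage was high in tumor 13 (0.12) of the high-dosage group and in tumors 17 (0.14), 4 (0.22) and 1 (0.21) of the low-dosage group.

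**Figure D4:**
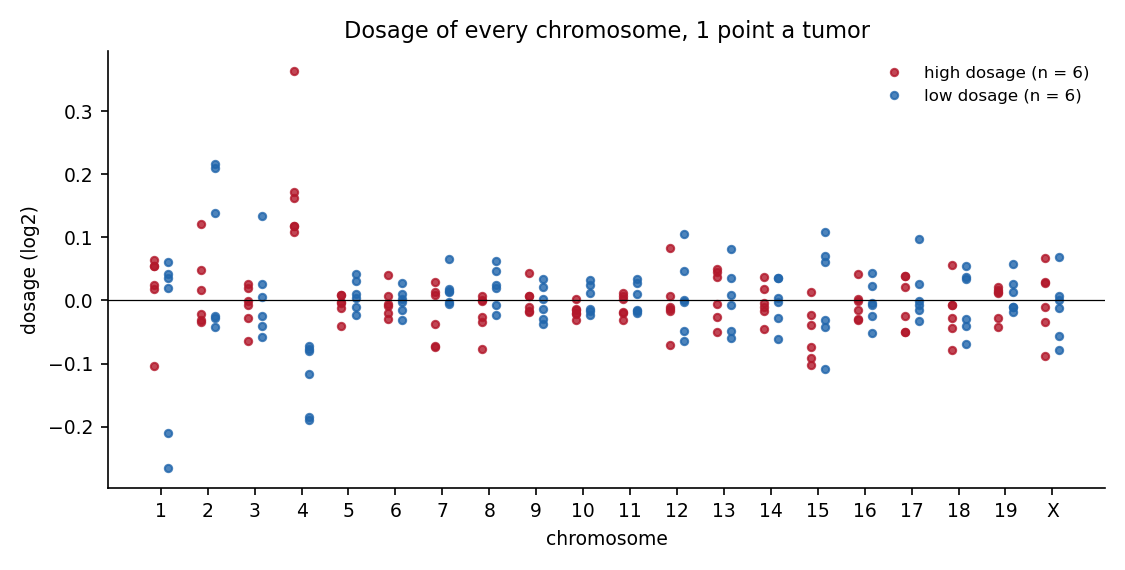
Dosage (log2, vertical axis) of every chromosome (horizontal axis), 1 point per tumor, with the 6 high-dosage tumors in red and the 6 low-dosage tumors in blue. The groups are apart at Chr4, where they were defined, and overlap on the other chromosomes, with far values at Chr1 (down to −0.27) and Chr2 (up to 0.22).

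Genes outside Chr4 entered the choice of groups only through the median over Chr1 to Chr19 that was subtracted from each tumor. They were tested with edgeR's quasi-likelihood test, with p-values adjusted by the Benjamini-Hochberg method over all 18762 genes tested. Of 17599 genes off Chr4, 426 (2.42%) had an adjusted p under 0.05. They comprised 211 genes that rose with high dosage (1.20%) and 215 that fell (1.22%), and 2535 genes had an unadjusted p under 0.05. The Chr4 genes that chose the groups were among the 18762, and with the adjustment made over the genes off Chr4 only, 334 were called, 172 higher and 162 lower. Of the genes named here, Egfr, Ier3 and Mgst2 then lost their calls. Of the 426 genes, 80 were over 2-fold higher and 32 over 2-fold lower. They lay on 19 chromosomes, and between 1.38% and 3.69% of the genes of each were called. The count fell to 215 without tumor 19, to 239 without tumor 5 and to 276 without tumor 18, and was between 303 and 430 when any other tumor was left out. It was 119 without the 3 tumors of low Chr1 dosage and 71 without the 4 tumors of high Chr2 dosage, in fits with fewer tumors.

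Genes of hypoxia and glycolysis were lower in the tumors of high Chr4 dosage. In low oxygen, the factor HIF-1 raises the genes for glucose uptake and glycolysis and for vessel growth, and many tumors run glycolysis at a high rate even with oxygen. Of 11 genes of this list off Chr4, 8 fell and none rose, where 1.22% of all 17599 genes off Chr4 fell and 1.20% rose. As the list was chosen with earlier results of these data known, these shares give no independent test of it. The median log2 fold change of the list was −0.84 against −0.02 over all 17599 genes. The summed level of the 11 genes was 2299 CPM in tumor 19, 2472 in tumor 6, 2737 in tumor 3, 2761 in tumor 14, 3060 in tumor 13 and 3235 in tumor 5. In the low-dosage group it was 3349 CPM in tumor 1, 3797 in tumor 2, 3869 in tumor 20, 4068 in tumor 18, 4119 in tumor 4 and 4219 in tumor 17. Every high-dosage tumor was thus below every low-dosage tumor. The 8 tumors between ran from 2649 to 3902 CPM, with a median of 3036. Among tumors with Lo titles the highest of 3 high-dosage values was 3060 CPM and the lowest of 4 low-dosage values 3349 CPM, and among tumors with Hi titles these were 3235 and 3869 CPM. Leaving out any 1 tumor gave 7 to 10 called members, with 7 without tumor 19, where Aldoa lost its call. There were 5 without the tumors of low Chr1 dosage and 4 without those of high Chr2 dosage.

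Adm, which encodes the vasodilator peptide adrenomedullin, fell most. Its lowest, median and highest levels were 4.59, 8.34 and 10.6 CPM in the high-dosage tumors and 17.1, 25.4 and 32.3 CPM in the low-dosage tumors, without overlap. The log2 fold change was −1.65 ± 0.22 (SE, adjusted p = 0.0017, edgeR), or 3.15-fold lower. Vegfa, the growth factor of blood vessels (chr17:46016993-46032377), was at 77.1, 93.2 and 112 CPM against 119, 158 and 251 CPM, a log2 fold change of −0.96 ± 0.14 (adjusted p = 0.0022, edgeR). Ankrd37, a HIF-1 target, was at 4.10, 5.54 and 7.65 CPM against 10.9, 12.1 and 12.7 CPM. Bnip3, which acts in mitophagy, fell 2.01-fold, with tumors that overlapped. The 3 members that did not pass were Pdk1, Ndrg1 and Egln3, with log2 fold changes of −0.55, −0.84 and −0.34 (adjusted p = 0.052, 0.051 and 0.15, edgeR).

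The enzymes from glucose phosphate isomerase to lactate dehydrogenase were lower as well. Those off Chr4 were counted after their values were seen, so the count is a description and the share beside it is no test. Pgk1, Ldha and Aldoa were already among the 8 called genes of the list above. The lactate dehydrogenase gene Ldhb was not among those chosen. All 11 chosen genes fell (Gpi1, Pfkl, Pfkp, Pfkm, Aldoa, Tpi1, Gapdh, Pgk1, Pgam1, Pkm and Ldha), where 1.22% of all genes off Chr4 did. There were 7 such calls without tumor 19 and 9 to 11 without any other tumor, and 5 and 4 without the tumors of low Chr1 and of high Chr2 dosage. The calls of Pfkl and Pfkm, forms of phosphofructokinase, were the least stable, each lost without any of at least 6 tumors. Gapdh (chr6:125161715-125166467) was at 322, 412 and 462 CPM in the high-dosage tumors and 574, 682 and 770 CPM in the low-dosage tumors. Its log2 fold change was −0.84 ± 0.09 (adjusted p = 0.00064, edgeR). Pgk1, on ChrX, was at 125, 161 and 202 CPM against 250, 270 and 300 CPM, and Tpi1 at 404, 474 and 555 CPM against 681, 801 and 892 CPM. Neither gene overlapped between the groups. Hk2, which phosphorylates glucose at the entry to the pathway, fell by 0.84 on the log2 scale. At the exit, Ldha was at 585 to 820 CPM against 841 to 1073 CPM, and Slc16a3, the transporter that exports lactate, fell 2.42-fold.

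Chr4 carries parts of the same pathway, and these did not share the rise of their chromosome. The glucose transporter gene Slc2a1 was at 54.7, 71.4 and 77.9 CPM in the high-dosage tumors and 70.3, 102 and 116 CPM in the low-dosage tumors. Car9, a carbonic anhydrase that HIF-1 raises, was at 80.1% of the low-dosage mean, and Eno1, the glycolytic enolase, at 86.4%. The tumors overlapped for all 3, and as Chr4 genes they were not tested. Hif1a itself had a log2 fold change of −0.23 ± 0.17 (adjusted p = 0.53, edgeR), whereas Egln1, the oxygen sensor that marks HIF for destruction and is also a HIF target, fell by 0.77 (adjusted p = 0.0022, edgeR). These genes were added after values were seen.

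The 10 genes that fell most, chosen by size among called genes with a mean of at least 1 on the log2 CPM scale, included others known from hypoxia. Carboxypeptidase M (gene symbol Cpm) was first, at 13.8, 18.6 and 33.2 CPM against 35.1, 53.6 and 134 CPM (log2 fold change −1.76 ± 0.34, adjusted p = 0.011, edgeR). Mgarp, a mitochondrial protein gene induced in hypoxia, was at 1.45 to 3.96 CPM against 5.50 to 10.7 CPM. The ephrin gene Efna3 was at 2.32 to 3.02 CPM against 4.49 to 11.2 CPM, and Ddit4, an inhibitor of mTORC1 raised by hypoxia and stress, at 32.9 to 44.1 CPM against 57.7 to 146 CPM. None of these overlapped. Mt1, a metallothionein, fell 2.61-fold with overlap, and the call was lost when any of tumors 19, 5, 3, 13, 6, 17 and 4 was left out. Also among them were Adm, Slc16a3, the autophagy gene Atg9b (not called without tumor 19 or 5) and Mgst2, whose call was lost without any of 9 tumors (all but 14, 2 and 1).

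Among called genes with a mean of at least 1 on the log2 CPM scale, Ptx3 rose most. This secreted pattern recognition protein of the pentraxin family (chr3:66219910-66225805) was at 31.5, 47.8 and 64.9 CPM in the high-dosage tumors and 7.41, 9.62 and 17 CPM in the low-dosage tumors. The log2 fold change was 2.13 ± 0.22 (adjusted p = 0.00051, edgeR), or 4.39-fold. Lgr6, an R-spondin receptor that marks stem cells in several epithelia (chr1:134983301-135105276), was at 22.4, 40.8 and 68.1 CPM against 7.69, 9.76 and 21.7 CPM (log2 fold change 1.96 ± 0.26, adjusted p = 0.0017, edgeR). Ntn1, the guidance cue netrin-1 (chr11:68209364-68400823), was at 116, 162 and 219 CPM against 32.6, 48.0 and 66.1 CPM, a log2 fold change of 1.69 ± 0.17. The groups were apart for all 3. Muc15, a membrane mucin gene, rose from 50.1 to 85.6 CPM in the low-dosage tumors to 178 to 293 CPM in the high-dosage tumors. The protease inhibitor gene Spink5 and the cadherin-related gene Cdhr1 rose 3.74-fold and 3.21-fold, without overlap. Crabp1, which binds retinoic acid, and Hmgcll1 were at under 1.8 CPM in every low-dosage tumor and overlapped with the high-dosage group. The call of Hmgcll1 was lost without tumor 5, 6 or 4. Pinc, a noncoding RNA of the mammary gland known to rise in pregnancy, was at 35.7 to 133 CPM against 5.999 to 33.8 CPM. Gm27315, the last of the 10 genes that rose most, lies within the span of Pinc, so that reads of both may not have been told apart, and it was not called without tumor 19, 5, 3, 13, 2 or 1.

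**Figure D5:**
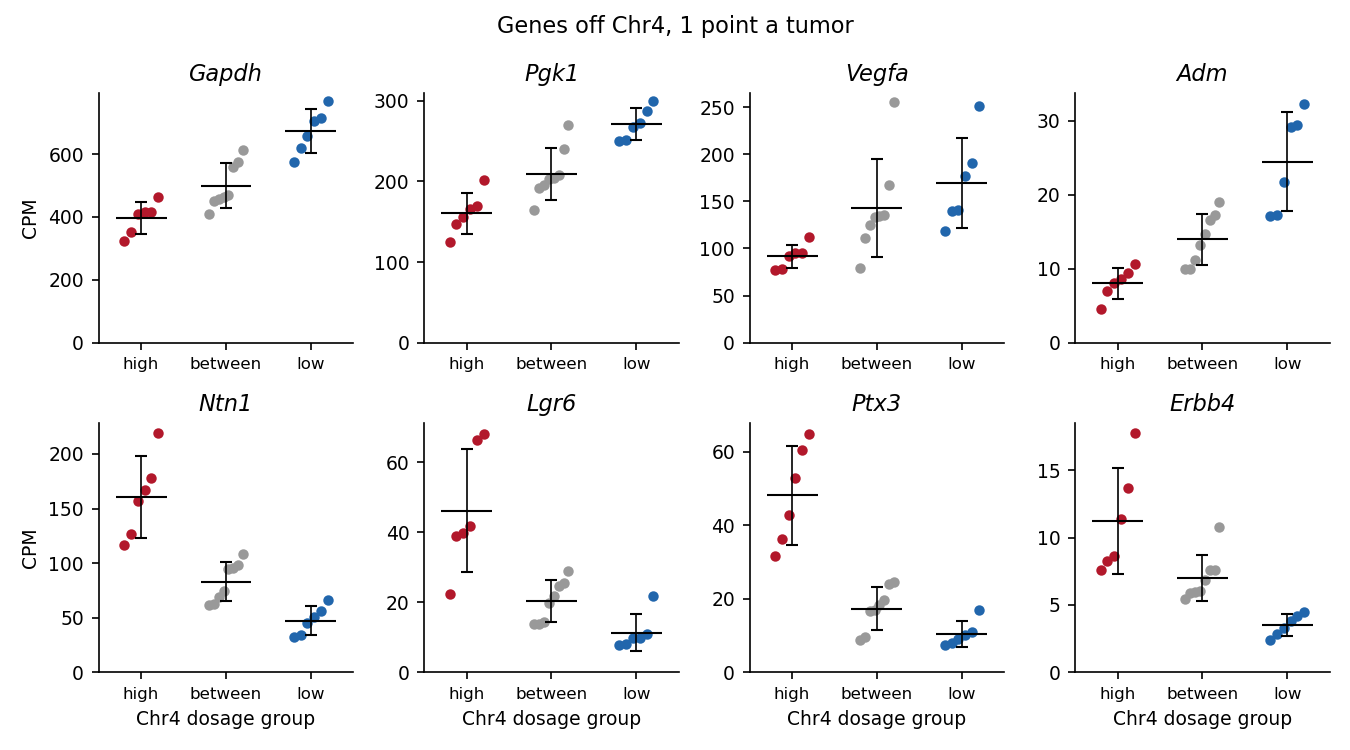
CPM (vertical axis) of 8 genes outside Chr4 in the 6 high-dosage, 8 between and 6 low-dosage tumors, 1 point per tumor, with the mean and SD in black. Gapdh, Pgk1, Vegfa and Adm are lower, and Ntn1, Lgr6, Ptx3 and Erbb4 higher, in every high-dosage tumor than in every low-dosage tumor.

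Over all 20 tumors the genes off Chr4 with the strongest rank correlation to the Chr4 dosage were Ntn1 (Spearman rho = 0.95), Lgr6 (0.93), Mif (−0.93), Gapdh (−0.93) and Bhlhe41 (0.92). They were picked as the extremes of all genes over the same libraries, and the coefficients are a description. Mif, a cytokine that is also raised by hypoxia, was at 76.2 to 127 CPM in the high-dosage tumors, 101 to 141 CPM in those between and 132 to 173 CPM in the low-dosage tumors. Bhlhe41, a transcriptional repressor of the circadian system, was at 64.6 to 93.7 CPM, 33.2 to 56.6 CPM and 14.96 to 36.3 CPM. Hypoxia is known to raise Bhlhe41, which here was highest where the hypoxia genes were lowest.

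Among the receptors of the ErbB family, Erbb4 and Egfr rose, while Erbb2 and Erbb3 had log2 fold changes of −0.02 and −0.04 and did not pass. Of 10 tested genes of ErbB receptors and ligands, 2 rose and 1 fell, where 1.20% and 1.22% of all genes off Chr4 did. The median log2 fold change of the list was 0.13 against −0.02 over all 17599 genes. Erbb4, the neuregulin receptor needed for milk production (chr1:68032186-69108059), was at 7.63, 9.98 and 17.7 CPM in the high-dosage tumors and 2.37, 3.52 and 4.48 CPM in the low-dosage tumors, a log2 fold change of 1.61 ± 0.22 (adjusted p = 0.0018, edgeR). Egfr was at 62.0 to 91.8 CPM against 42.3 to 59.8 CPM (log2 fold change 0.52 ± 0.13, adjusted p = 0.043, edgeR). The Egfr call was lost without any of 9 tumors (all but 13, 14 and 2). Hbegf, a ligand of both, fell by 0.50 on the log2 scale.

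Mammary differentiation and basal genes gave few calls. In this and the next lists, counts stand against 1.20% of all genes off Chr4 that rose and 1.22% that fell, shares that give less than 1 gene for a list of such size, and so few calls say little about a list. Among 8 milk genes 1 rose, with a median log2 fold change of 1.19, and all 8 had values above 0. It was Lalba, the α-lactalbumin needed for lactose, at 130, 161 and 268 CPM against 29.9, 57.1 and 84.3 CPM (log2 fold change 1.52 ± 0.25, adjusted p = 0.0053, edgeR). The caseins varied widely, Csn2 from 52.2 to 1099 CPM within the high-dosage group alone. Among 7 basal and myoepithelial genes 2 rose, Trp63 (2.59 to 4.56 CPM against 1.402 to 1.92 CPM) and the oxytocin receptor gene Oxtr (6.13 to 17.2 CPM against 2.71 to 5.24 CPM). The basal keratins Krt5 and Krt14 were at no more than 28.9 and 23.0 CPM in any tumor, both in tumor 6, and did not pass. The summed level of this list ran from 29.4 to 86.8 CPM in the high-dosage and 22.7 to 36.8 CPM in the low-dosage group. None of 10 luminal genes passed in edgeR (4 had an unadjusted p under 0.05, and DESeq2 called 1), and their summed levels overlapped, at 2986 to 3962 CPM and 3463 to 4262 CPM.

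Lists of immune and stromal markers held a few called genes. Of 6 leukocyte genes off Chr4, 1 rose, Ptprc (CD45), at 20.5 to 29.7 CPM against 13.7 to 19.1 CPM (log2 fold change 0.58 ± 0.09, adjusted p = 0.0041, edgeR). Lcp1 of the same list had a log2 fold change of −0.43 and did not pass. The list summed to 341 to 458 CPM and 296 to 603 CPM, but most of this sum was Lcp1. Its means were 306 and 386 CPM, where the whole list had means of 395 and 453 CPM. The sum therefore says little about the other leukocyte genes. Of 6 genes of MHC class II antigen presentation, 2 rose, H2-Aa and its regulator Ciita, with sums of 452 to 713 CPM and 194 to 506 CPM. Neither was called without tumor 19, and H2-Aa was also lost without tumor 5, 13, 18 or 1. DESeq2 called 5 of the 6. None of 9 macrophage genes passed in edgeR (5 had an unadjusted p under 0.05, and DESeq2 called 1), with sums of 315 to 383 CPM and 218 to 368 CPM. None of 5 tested T cell genes passed in edgeR (3 had an unadjusted p under 0.05, and DESeq2 called 1), and the full list of 8 summed to 2.42 to 6.05 CPM and 1.52 to 3.25 CPM. Among 9 fibroblast genes 1 rose, Pdgfra, at 16.96 to 25.5 CPM against 7.38 to 15.4 CPM, a call that was lost without tumor 19, 4 or 18. None of 8 endothelial genes passed in edgeR or in DESeq2, and 0 had an unadjusted p under 0.05, with sums of 72.7 to 128 CPM and 57.2 to 131 CPM. Of the other lists, 3 of 3 tested neutrophil genes had fold changes below 0 with a median of −0.19, and none passed in edgeR (1 had an unadjusted p under 0.05, and DESeq2 called 1). The neutrophil list summed to only 2.001 to 4.04 CPM and 3.07 to 5.70 CPM, and its gene Ly6g was at 0 in every high-dosage tumor. None of 2 B cell, 6 adipocyte, 6 skeletal muscle and 6 pericyte and smooth muscle genes passed in edgeR or in DESeq2, and 0 of them had an unadjusted p under 0.05. Fold changes were above 0 for 5 of 6 leukocyte, 6 of 6 MHC class II, 7 of 9 macrophage, 5 of 5 T cell and 9 of 9 fibroblast genes. They were above 0 for 4 of 8 endothelial, 1 of 2 B cell, 2 of 6 adipocyte, 6 of 6 skeletal muscle and 3 of 6 pericyte and smooth muscle genes. The part of the listed cell types in the other differences was not tested.

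Of 17 genes of the Rb and p53 axis 1 rose, Rb1 itself, at 38.3, 48.0 and 55.6 CPM against 24.0, 31.6 and 36.5 CPM (log2 fold change 0.52 ± 0.09, adjusted p = 0.0049, edgeR). Cdkn1a, the p53 target that encodes p21, had a log2 fold change of −0.99 ± 0.32 (adjusted p = 0.12, edgeR) and ranged from 64.4 to 257 CPM in the low-dosage group. None of 13 p53 targets passed in edgeR (7 had an unadjusted p under 0.05, and DESeq2 called 2), with a median log2 fold change of −0.34. None of 20 mitosis and replication genes passed in edgeR (5 had an unadjusted p under 0.05, and DESeq2 called 1), with a median of −0.15. Of these 20 genes, 19 had a log2 fold change below 0 and 1 above. All 12 immediate-early genes had log2 fold changes below 0, with a median of −0.46 and 8 at an unadjusted p under 0.05, and 2 of them fell, Ier3 and Nr4a1. Of 14 heat shock and unfolded protein genes 1 fell, Dnajb1. These 3 calls were each of less than 0.5 on the log2 scale. Ier3 was lost without any of 10 tumors (all but 3 and 1), Nr4a1 without tumor 19, 5 or 18, and Dnajb1 without tumor 19 or 3.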

How the data were processed

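RNA of 20 tumors was sequenced by the authors after TruSeq mRNA library preparation. Per the study's methods, reads trimmed to 100 bases were aligned to mm10 within MapRseq. The submitters' processing notes name TopHat2 2.0.12 and featureCounts 1.4.4. Strand setting and annotation release are not given in the sources used here. The authors deposited raw counts per gene, with no normalization, for 43346 genes, and totals were 38765682 to 65465755 counts per tumor.

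CPM used each tumor's total count. Members and gene lists were chosen with earlier results of these data known. Genes were tested with edgeR 4.0.16 in R 4.3.3 (TMM factors, filterByExpr, glmQLFit and glmQLFTest) between 6 and 6 tumors, without covariates. P-values measure the spread between tumors of separate mice. Named genes off Chr4 were, per direction, the 10 with the largest change among those with an adjusted p under 0.05 and a mean log2 CPM of at least 1, the called members of the lists, and the 5 most like the dosage, and on Chr4 the 5 largest and 5 smallest differences and the listed genes. Other genes, list members that did not pass among them, were named after values were seen. A gene that the rule selected is not reported here. Chromosome dosages were compared by exact permutation tests. On simulated counts with 200 of 18510 genes changed 2-fold, the edgeR step recovered 138 with 5 false calls. Alternatives included DESeq2 1.42.0, other scaling and filters, a replicate block and leaving out tumors.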

Additional observations from a re-analysis of the deposited data

Results flagged for a closer look

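Values were examined for a tumor far from the other 5 of its group, taken as a gap to the nearest tumor, relative to the range of the group, above Dixon's critical value for 6 samples. This was done in 134 sets of 6 values (dosages of chromosomes other than Chr4, summed gene lists, library measures and the 20 genes with the largest changes), and 14 stood out where chance gives about 1 in 20.

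Among chromosomes, tumor 19 had a Chr1 dosage of −0.10, with the next tumor of its group at 0.02. Tumor 4 of the low-dosage group had a Chr7 dosage of 0.066, with the next at 0.018.

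Among summed lists, tumor 14 had 452 CPM of skeletal muscle genes, 73.7 CPM of adipocyte genes and 654 CPM of ErbB receptors and ligands, the last below its group. Tumor 18 had 311 CPM of skeletal muscle genes. Tumor 6 had 86.8 CPM of basal and myoepithelial genes, where the next tumor had 42.2, and 2.001 CPM of neutrophil genes, the lowest of its group.

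Among library measures, tumor 5 had a total count of 65.19 × 1000000. Among single genes, tumor 20 was the highest of the low-dosage group for Ptx3 (17 CPM) and Lgr6 (21.7 CPM), and tumor 4 for Atg9b (12.4 CPM). Tumor 19 was the highest of its group for Cdhr1 (27.6 CPM) and tumor 3 for Gm27315 (10.3 CPM).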

How the results depend on the processing

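The Chr4 dosage difference stayed between 0.26 and 0.31 under every alternative run for it. Likewise, 100% of bins were higher in the high-dosage group. Since Chr4 genes chose the groups, a positive difference was built in and higher bins were favored, so this stability is a description. The largest difference of another chromosome passed the test under no alternative run for it. The trend on GC content and length, and the fits without tumors of low Chr1 or high Chr2 dosage or of the same 8 tumors without a block, were added after seeing the data. The count of 426 genes called off Chr4 became 858 with DESeq2, 334 with p-values adjusted over genes off Chr4 only, 644 with all 20 tumors and dosage as a number, 119 without the 3 tumors of low Chr1 dosage, 71 without the 4 tumors of high Chr2 dosage, and 215 to 430 when each tumor was left out in turn. With the replicate block, which keeps only the 8 tumors whose title number occurs in both groups, it was 6, and 146 in the same 8 tumors with no replicate block. The labels do not say whether the numbers pair tumors. The deviations of same-numbered tumors from their group means correlated between −0.18 and 0.11. These values cannot decide it, since tumors of different number were not compared. Of 1482 values of the 57 named genes past the threshold, 1222 kept their side of it, 260 lost it and none reversed. Of the hypoxia and glycolysis genes off Chr4, 8 were called, against 0 with the replicate block, 6 in the same 8 tumors without it and 8 to 11 under other scaling, filters and group sizes. Library totals differ by less than 2-fold, and genes under 5 CPM, where counting error is largest, were kept out of the dosage.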

Other observations

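The lists of cytosolic ribosomal proteins, the respiratory chain and the proteasome held no called gene off Chr4 in edgeR or in DESeq2. All 19 genes of cytosolic ribosomal proteins had a log2 fold change below 0, with a median of −0.14 and 4 at an unadjusted p under 0.05, as had all 14 nuclear-encoded genes of the respiratory chain, with a median of −0.13 and 2 at an unadjusted p under 0.05. Of 13 proteasome genes 11 were below 0 (median −0.09) and 1 had an unadjusted p under 0.05. The median over all 17599 genes was −0.02. The summed CPM overlapped between high-dosage and low-dosage tumors, at 7859 to 9973 and 8310 to 10810 for the ribosomal proteins and at 2980 to 3317 and 2998 to 3836 for the respiratory chain.

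Interferon-stimulated genes varied widely within both groups. None of 14 off Chr4 passed in edgeR or in DESeq2, 0 had an unadjusted p under 0.05, and their summed CPM ran from 290.2 to 1109 in the high-dosage and from 132 to 954 in the low-dosage group. Of the 14, 13 had a log2 fold change above 0 and 1 below, with a median of 0.29. Ddx58, a member of the same list that lies on Chr4, did not overlap between the groups.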
